A study of Homo sapiens with 6 samples.

Results

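KRT19 and 9 other genes of intermediate filaments, KRT7, KRT8, KRT10, KRT18, VIM, NES, NEFL, NEFM and INA, were examined in 6 clonal lines of HEK293, a line established from human embryonic kidney. They are 10 of the 58395 genes counted. They were chosen by name, with the difference between the groups in these same libraries already known, so their levels and fold changes are a description and carry no test. GST lines 2, 8 and 9 expressed GST-3F, the control protein glutathione S-transferase, and NOCT lines 4, 11 and 12 expressed NOCT Δ(2-15)-3F, nocturnin without residues 2 to 15. All lines carried the tag written 3F and were grown for 3 days before RNA was taken; the labels give no further treatment. Each line is 1 clone, and the promoter that drives the constructs is not given in the labels, so a feature of a clone and an effect of the construct cannot be told apart within a line.

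Intermediate filaments are the rope-like part of the cytoskeleton. Keratins are built from pairs of 1 type I and 1 type II chain: KRT8 (type II) with KRT18 (type I) is the pair of simple epithelia, KRT19 is a type I chain that can also pair with KRT8, and KRT7 is another type II chain of simple epithelia. Vimentin (VIM) forms filaments by itself in mesenchymal and most cultured cells, nestin (NES) joins vimentin in progenitor cells, and the neurofilament chains NEFL and NEFM with α-internexin (INA) make up the filaments of neurons.

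The 6 libraries held 19729745 to 24422406 gene counts. The row for the GST construct had 46 to 88 counts in GST lines and 0 to 1 in NOCT lines, and the row for the NOCT construct had 46 to 82 counts in NOCT lines and 3 to 7 in GST lines, as labelled. All 5 HEK293 marker genes were detected, with a summed level of up to 263 TPM (counts scaled for gene length and depth) in GST lines and of 272 to 325 TPM in NOCT lines. PAX2, one of them and singled out after its values were seen, was at 1.796 to 2.45 TPM in GST lines and at 0.37 to 0.618 TPM in NOCT lines (log2 fold change -2.13 ± 0.30, edgeR adjusted p 0.0567). The other 4 HEK293 markers had log2 fold changes above 0. Among them LHX1 was at 2.32 to 7.50 TPM in GST lines and at 6.08 to 13.75 TPM in NOCT lines. Its log2 fold change was 0.94 ± 0.40 (edgeR adjusted p 0.355), and the groups overlapped. Of the defining keratinocyte markers, KRT5, KRT14 and KRT1 had no count in any line. In RNA from whole cultures, fewer cells of a type and less RNA per cell cannot be told apart.

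The keratin sequences bear on how the counts can be read, since KRT8 and KRT18 have many processed copies in the genome and reads that fit more than 1 place were not counted. Each 50-base window of 1 reference transcript per gene, the length of a read, was looked up in all other GENCODE 29 transcripts outside the gene's own locus. For KRT8, 41.3% of 1638 windows also stood in another gene, among them 33 KRT8 pseudogenes. For KRT18 the share was 31.8% of 1513 windows, with 43 KRT18 pseudogenes, and for KRT19 it was 1.79% of 1341 windows, with 1 pseudogene, KRT19P1. No window of KRT10, VIM, NES, NEFL or INA was shared in this way, and KRT7 (1.06%) and NEFM (0.151%) were nearly free of it. The window with the most copies elsewhere is shown for KRT18 and KRT19, to set a type I chain with many copies beside one with few, and is numbered from the first coding base. The KRT18 window stands in 10 other genes, and the KRT19 window in KRT19P1 alone.
KRT18 bases 937 to 986: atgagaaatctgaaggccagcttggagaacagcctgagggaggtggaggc
KRT19 bases 791 to 840: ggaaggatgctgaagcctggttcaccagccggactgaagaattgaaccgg

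The level of KRT8 and KRT18 is therefore understated by the counts, while KRT19 is counted over nearly its whole transcript. A ratio between lines for the same gene uses the same windows in every line. The pseudogene rows themselves took few reads: the 50 KRT8P rows together had 4.73% to 17.2% of the count of KRT8 in a line, and the 67 KRT18P rows 7.42% to 16.7% of that of KRT18. The 3 pseudogene rows with the most reads were KRT18P31, KRT8P12 and KRT8P46. Between NOCT and GST lines they differed by 0.10, 0.27 and -0.21 on the log2 scale (edgeR adjusted p 0.863, 0.655 and 0.832). The 5 KRT19P rows had 2 counts in all 6 lines together.

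Of the type I keratins KRT10, KRT18 and KRT19, KRT19 had the widest gap between the groups. KRT19 (ENSG00000171345, GRCh38 chr17:41523617-41528308, minus strand, 6 exons) is a simple epithelial keratin that lacks most of the tail of its family. It stood at 11.4, 6.82 and 12.2 TPM in GST lines 2, 8 and 9 and at 146, 114 and 136 TPM in NOCT lines 4, 11 and 12. The 3 NOCT lines were close to each other, with the highest 1.28 times the lowest, and each was far above each GST line. The fitted log2 fold change was 3.61 ± 0.23 (SE), and the NOCT lines were at 14.4, 11.2 and 13.4 times the mean of the GST lines. In the authors' deposited table the log2 fold change of KRT19, shrunken by the authors, is 2.94.

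KRT18 (ENSG00000111057, chr12:52948871-52952901, plus strand, 7 exons), the partner of KRT8, stood at 56.0, 63.9 and 62.0 TPM in GST lines 2, 8 and 9 and at 130.4, 105 and 66.3 TPM in NOCT lines 4, 11 and 12. NOCT lines 4 and 11 were well above the GST lines, and line 12 was just above the highest of them. The log2 fold change was 0.63 ± 0.19. KRT10 (ENSG00000186395, chr17:40818117-40822595, minus strand, 8 exons) is a type I keratin of the upper epidermis, and here it stood at 15.7, 16.9 and 19.8 TPM in GST lines and at 19.9, 16.1 and 18.2 TPM in NOCT lines 4, 11 and 12. The groups overlapped throughout, with a log2 fold change of -0.04 ± 0.15.

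Of the type II keratins, KRT8 (ENSG00000170421, chr12:52897187-52949954, minus strand) carried nearly all of the RNA. It stood at 31.3, 38.3 and 35.1 TPM in GST lines 2, 8 and 9 and at 114, 82.9 and 45.8 TPM in NOCT lines 4, 11 and 12. As for KRT18, line 4 was highest, line 11 followed, and line 12 lay just above the GST lines; the groups did not overlap. The log2 fold change was 1.11 ± 0.26. The KRT8 gene model overlaps the start of KRT18 on the other strand, but the counts kept strand: 128 of 685 genes lying inside exons of the opposite strand had at least 10 counts, against 3 of 759 inside exons of the same strand. KRT7 (ENSG00000135480, chr12:52232520-52252186, plus strand) was hardly detected, with 1, 0 and 1 counts in the GST lines and 4, 3 and 1 in the NOCT lines, and it did not enter the fit.

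**Figure D1:**
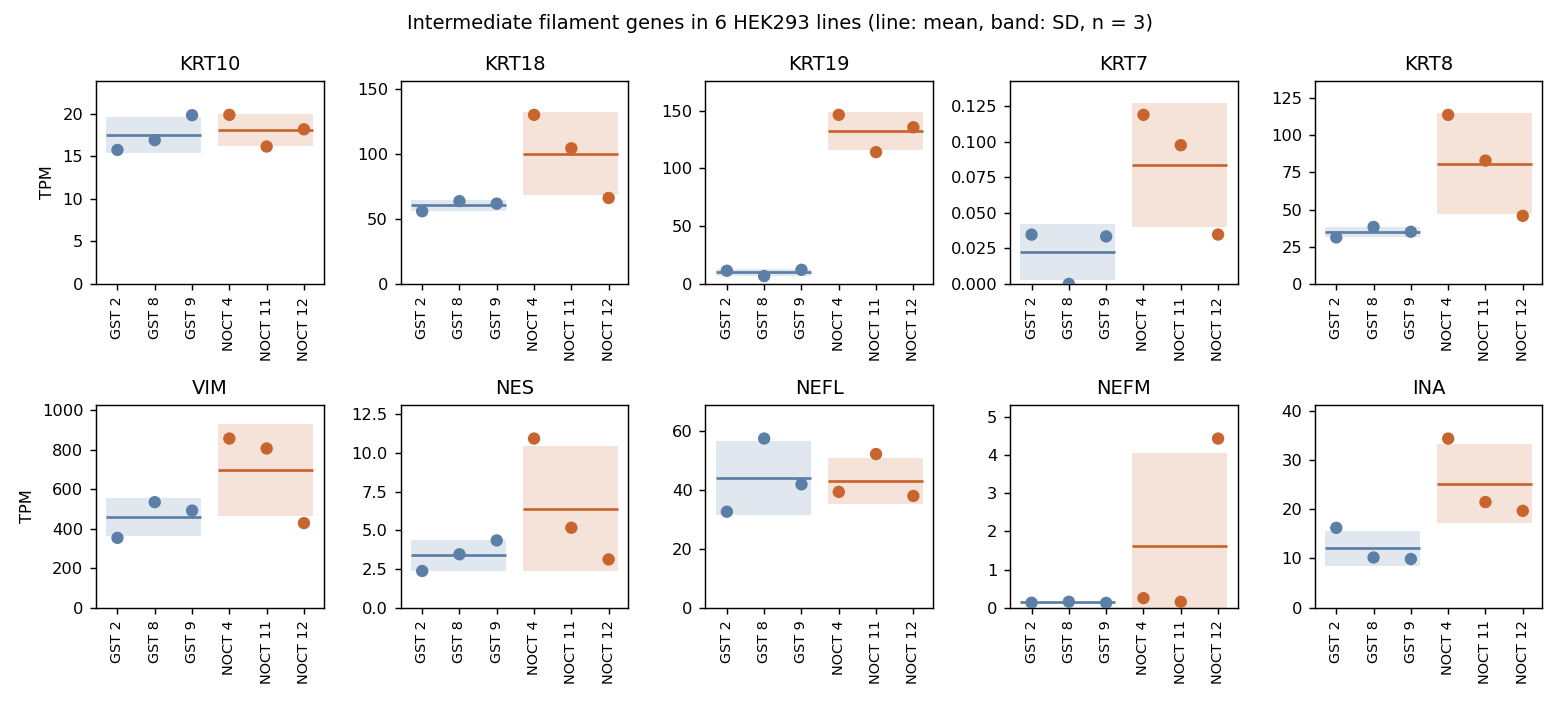
Level of each gene in TPM (y axis, from 0, a scale of its own in each panel) in each of the 6 lines (x axis). Points are lines, the horizontal bar is the mean and the band the SD of the 3 lines of a group. KRT19 stands at 114 to 146 TPM in the NOCT lines and at 6.82 to 12.2 TPM in the GST lines, while KRT8, KRT18, VIM and NES are lowest in NOCT line 12 among the NOCT lines and NEFM is high in line 12 alone.

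Vimentin had the highest TPM of the 10 genes in every line. VIM (ENSG00000026025, chr10:17228259-17237593, plus strand, 9 exons) stood at 353, 534 and 491 TPM in GST lines 2, 8 and 9 and at 856, 806 and 428 TPM in NOCT lines 4, 11 and 12. Lines 4 and 11 were above all GST lines and line 12 was inside their range. The log2 fold change was 0.51 ± 0.23. Nestin, NES (ENSG00000132688, chr1:156668763-156677397, minus strand, 4 exons), had the same order at a lower level, with 2.37, 3.45 and 4.35 TPM in the GST lines and 10.9, 5.17 and 3.12 TPM in NOCT lines 4, 11 and 12. Its line 12 value was again inside the range of the GST lines, and its log2 fold change of 0.81 ± 0.41 rested mostly on line 4: without that line it was 0.23, and without line 12 it was 1.12.

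The neuronal filament genes did not move as a group. INA (ENSG00000148798, chr10:103277163-103290351, plus strand, 3 exons) stood at 16.2, 10.2 and 9.89 TPM in GST lines 2, 8 and 9 and at 34.4, 21.5 and 19.7 TPM in NOCT lines 4, 11 and 12. All NOCT lines were above all GST lines, line 4 most of all, and the log2 fold change was 0.95 ± 0.27. NEFL (ENSG00000277586, chromosome 8, minus strand), the core chain of neurofilaments, stood at 32.5, 57.3 and 41.8 TPM in GST lines and at 39.2, 52.1 and 37.9 TPM in NOCT lines 4, 11 and 12, inside the range of the GST lines, with a log2 fold change of -0.10 ± 0.19. NEFM (ENSG00000104722, chromosome 8, plus strand), which lies beside NEFL, was near the limit of detection in 5 lines, with 4, 5 and 4 counts in the GST lines and 9 and 5 counts in NOCT lines 4 and 11. In NOCT line 12 it had 137 counts, or 4.44 TPM, against 0.125 to 0.154 TPM in the GST lines. NEFM was left out of the fit as a gene with low counts, and the line 12 value has no second line beside it.

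Of the 10 genes, 8 were tested across all genes, and 1 of these, KRT19, had an edgeR adjusted p under 0.05, against 0.0579% of the 17261 genes tested. In the authors' deposited DESeq2 comparison KRT8 and INA were under 0.05 as well as KRT19. The share of all genes there was not counted, and DESeq2 as run here called 2.94% of the 17261 genes. Because the genes were chosen on this contrast, nothing is read from these calls. KRT8, KRT18, KRT19 and INA, 4 of the 8, had every NOCT line above every GST line, as had 10.5% of all genes tested. The log2 fold change was above 0 for 6 of the 8 and below 0 for 2, with a median of 0.72 beside a median of 0.0046 over all genes tested. KRT7 and NEFM had no fitted value.

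The genes fell into different patterns over the 3 NOCT lines, which is visible when each line is set against the mean of the GST lines. NOCT line 4 was at 3.26 times that mean for KRT8, 2.15 times for KRT18, 1.86 times for VIM and 3.23 times for NES. In line 11 the same genes stood at 2.38, 1.73, 1.75 and 1.52 times, and in line 12 at 1.31, 1.09, 0.931 and 0.92 times. KRT19 did not follow that order. INA stood between, at 2.84, 1.78 and 1.63 times, and NEFM was at 32.6 times in line 12 only. Line 12 held the most counts of the NOCT construct of the 3 NOCT lines (82, against 74 in line 4 and 46 in line 11), and the part of construct level in these patterns was not tested.

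**Figure D2:**
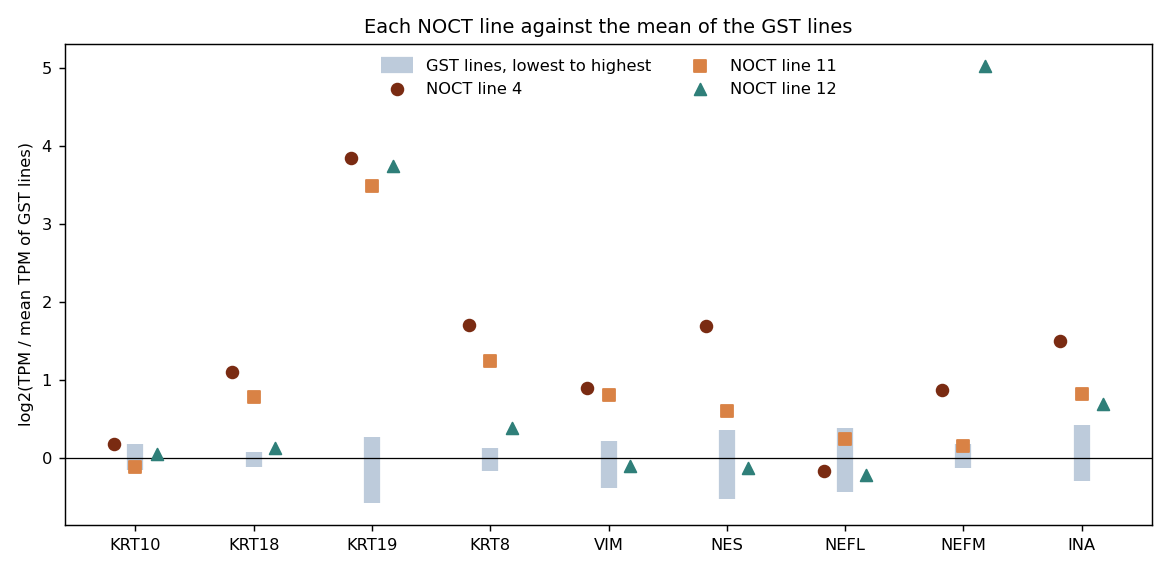
log2 ratio of the TPM in each NOCT line to the mean TPM of the GST lines (y axis, 0 is the GST mean) for 9 genes (x axis). Symbols are NOCT lines 4, 11 and 12 and the pale bar spans the lowest to the highest GST line. KRT19 is alike in the 3 NOCT lines, whereas KRT8, KRT18, VIM and NES lie near or inside the GST range in line 12. KRT7, with 0 to 4 counts, is not drawn.

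A type I and a type II keratin outside the 10 genes had the same line order in a more extreme form. KRT17, a type I keratin of basal and stressed epithelia whose gene lies 96.5 kb from KRT19, had 3, 5 and 5 counts in GST lines 2, 8 and 9 and 2808, 896 and 26 counts in NOCT lines 4, 11 and 12. These are 0.168 to 0.269 TPM in the GST lines and 135, 47.0 and 1.46 TPM in the NOCT lines. KRT17 differed by 7.85 ± 1.59 on the log2 scale (edgeR adjusted p 0.122). The adjusted p was 6.2e-06 with DESeq2 and 5.9e-04 by edgeR without NOCT line 12, and up to 0.576, without GST line 9, over all alternatives. KRT17 entered the main fit only through its counts in the NOCT lines, so nothing is read from its p-values. The log2 difference itself ranged from 4.35, by limma on log2(TPM + 1), to 8.42, without NOCT line 12, and was 6.56 without NOCT line 4. In the authors' deposited table the shrunken log2 fold change of KRT17 is far smaller, at 0.35, with a DESeq2 adjusted p of 7.0e-06. KRT80, a type II keratin, had 0, 2 and 0 counts in the GST lines and 256, 75 and 0 in NOCT lines 4, 11 and 12, and did not pass the filter on low counts.

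To compare keratins with each other, the length behind a level matters. The deposited TPM values use the summed length of all exons of a gene: for 98.3% of 16700 genes the length they imply was within 5% of that in GENCODE 29, up to 1 factor common to all genes. For KRT8 that length is 6881 bases beside 1687 bases of its reference transcript, for KRT18 it is 3218 beside 1562, and for KRT19 it is 2336 beside 1390, so TPM understates KRT8 against the others. Levels were therefore also computed as counts scaled to the library's gene counts (CPM) per 1000 windows that occur in no other gene, here called the unique-window level. On that scale KRT8 to KRT18 was 1.28, 1.38 and 1.30 in GST lines 2, 8 and 9 and 2.00, 1.82 and 1.58 in NOCT lines 4, 11 and 12, whereas in TPM it was at most 0.5998 in the GST lines and 0.69 to 0.871 in the NOCT lines. The ratio was higher in every NOCT line on both scales, but which of the pair was more abundant depended on the scale.

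KRT19 stood at 0.116, 0.0607 and 0.112 of the unique-window level of KRT18 in the GST lines and at 0.638, 0.62 and 1.164 of it in NOCT lines 4, 11 and 12. In TPM the same ratio was 0.107 to 0.204 and 1.09 to 2.05, so KRT19 above KRT18 in all 3 NOCT lines holds in TPM and, by unique windows, in line 12 alone. Among the 4 type I keratins KRT10, KRT17, KRT18 and KRT19, KRT19 made up 9.57%, 5.28% and 9.19% of the unique-window level in GST lines 2, 8 and 9 and 27.6%, 31.9% and 51.3% in NOCT lines 4, 11 and 12. KRT17 made up 27.0%, 14.0% and 0.585% in the NOCT lines. Summed type I over summed type II (KRT8 and KRT80) was 0.945, 0.835 and 0.939 in the GST lines and 1.14, 1.06 and 1.43 in NOCT lines 4, 11 and 12. In TPM it was 2.29 to 2.69 and 3.31 to 4.84. It was higher in every NOCT line than in every GST line on both scales, but the side of 1 in the GST lines depended on the scale.

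**Figure D3:**
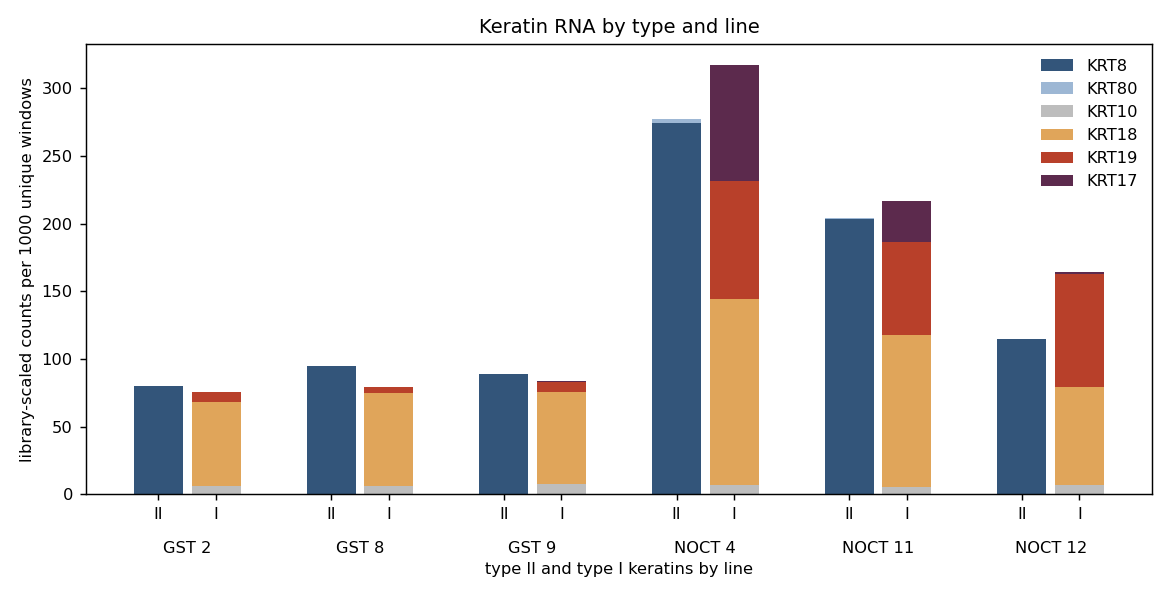
Unique-window level (y axis, CPM per 1000 unique windows) of type II keratins (left bar of each pair, KRT8 and KRT80) and type I keratins (right bar, KRT10, KRT18, KRT19 and KRT17) in each line. On this scale the type I bar is lower than the type II bar in each GST line and higher in each NOCT line (in TPM type I is higher in all 6 lines), and KRT17 is a large part of it in NOCT lines 4 and 11 only.

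Ordered by unique-window level, the GST lines had VIM (458.3 ± 88.0, SD, n = 3), KRT8 (87.9 ± 7.43), KRT18 (66.6 ± 3.55), NEFL (16.5 ± 4.43), then KRT19 (6.36 ± 1.90), KRT10 (6.36 ± 0.771) and INA (4.34 ± 1.34), with NES, NEFM and KRT7 below. The ranges of KRT19 and KRT10 and of KRT10 and INA overlapped, and no other neighbours in that order did. In the NOCT lines KRT19 (80.3 ± 9.74) followed KRT8 (197 ± 79.9) and KRT18 (107 ± 32.6), and the ranges of KRT8 and KRT18 and of KRT18 and KRT19 overlapped. VIM over the sum of the 6 keratins was 2.301, 3.01 and 2.86 in GST lines 2, 8 and 9 and 1.38, 1.86 and 1.52 in NOCT lines 4, 11 and 12, lower in every NOCT line, although the level of VIM itself was not.

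The genes around the keratins had small differences between the groups. Within 500 kb of KRT19, 14 tested genes other than keratins had a median log2 fold change of -0.03, from -0.38 (EIF1) to 0.66 (KLHL10), and within 500 kb of KRT18, 17 such genes had a median of -0.06, from -0.43 (RARG) to 0.62 (IGFBP6). None of these genes had a log2 fold change beyond 1 in size. The median deviation of 100 tested neighbours of KRT19 differed between the groups by -0.0044 on the log2 scale, that of VIM by -0.0011 and that of INA by -0.04.

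**Figure D4:**
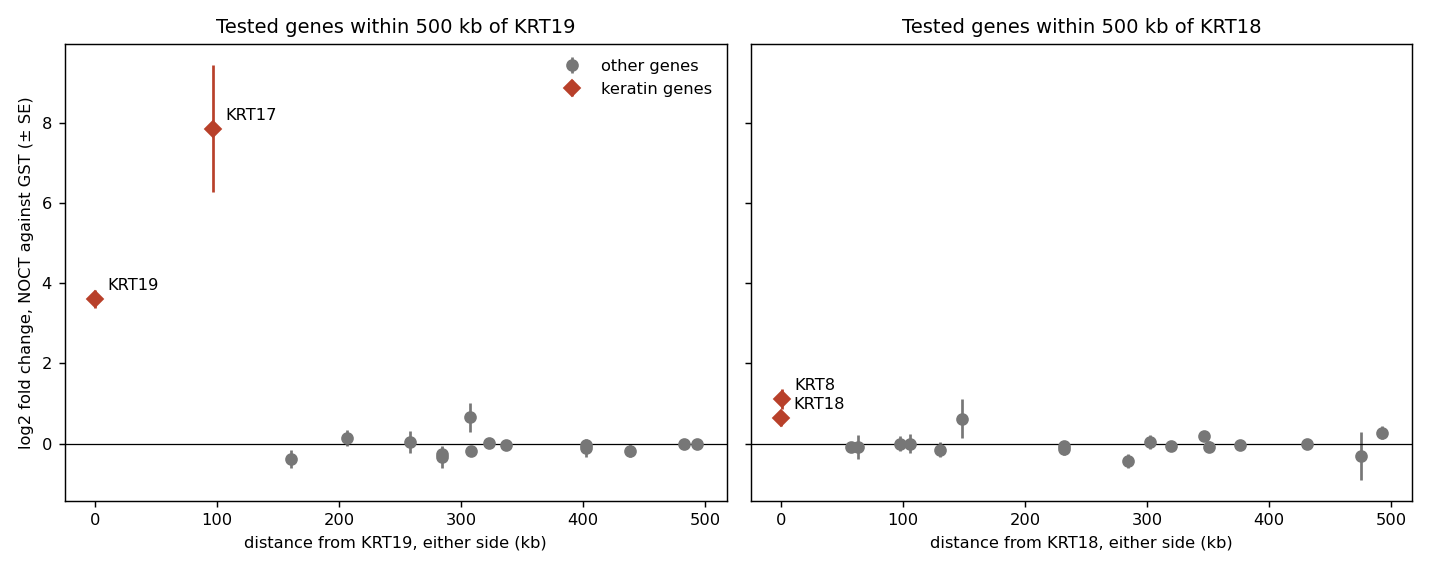
log2 fold change of NOCT against GST lines with its SE (y axis) for tested genes within 500 kb of KRT19 (left) and KRT18 (right), by distance on either side (x axis, kb). Keratin genes are diamonds and other genes circles. KRT19 and KRT17 lie at 3.61 and 7.85 and KRT18 and KRT8 at 0.63 and 1.11, and the other genes lie between -0.43 and 0.66.

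KRT8, VIM and NES were above every GST line in NOCT lines 4 and 11, NES in line 11 by little (5.17 TPM, against at most 4.35 TPM). In line 12 VIM and NES were inside the range of the GST lines, and KRT8 was at 45.8 TPM, against at most 38.3 TPM. Promoters are shown for these genes, which have an entry in the RefSeq promoter table (GRCh38.p14), as the 250 bases before the start site. Capitals mark a GC box (GGGCGG on either strand, the motif of the SP1 family), found in 42.5% of 34943 such windows. The KRT8 window lies at chr12:52926470-52926719 (minus strand), inside the longer GENCODE gene model given above, so it belongs to the start in that table and not to the outermost one, the VIM window at chr10:17227991-17228240 (plus strand) and the NES window at chr1:156677408-156677657 (minus strand).
KRT8: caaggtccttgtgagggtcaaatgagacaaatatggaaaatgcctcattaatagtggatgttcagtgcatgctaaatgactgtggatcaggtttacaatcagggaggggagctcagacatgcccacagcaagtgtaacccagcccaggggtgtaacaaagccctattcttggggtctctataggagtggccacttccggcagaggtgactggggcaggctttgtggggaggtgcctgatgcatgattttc
VIM: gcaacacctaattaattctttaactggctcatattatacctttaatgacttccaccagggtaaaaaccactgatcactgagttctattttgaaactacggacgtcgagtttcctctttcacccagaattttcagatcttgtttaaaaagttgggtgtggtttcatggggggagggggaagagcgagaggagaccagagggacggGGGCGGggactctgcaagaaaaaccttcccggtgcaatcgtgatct
NES: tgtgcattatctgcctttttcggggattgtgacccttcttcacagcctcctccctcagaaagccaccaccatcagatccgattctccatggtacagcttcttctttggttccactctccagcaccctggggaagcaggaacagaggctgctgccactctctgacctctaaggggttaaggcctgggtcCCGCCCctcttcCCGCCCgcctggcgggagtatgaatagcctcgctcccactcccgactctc

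In these windows VIM held 1 GC box and NES 2, and KRT8 none. The INA window held 4 and the KRT10 window none. Other starts of KRT8 within its gene model were not examined. A TATA box (TATAAA, either strand, in 10.8% of the windows) occurred in KRT10 only, and an AP-1 site (TGANTCA, either strand, in 6.59%) in none of the 5.

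By the smallest root-mean-square difference over the 6 lines between centred log2 profiles, among 14925 genes with 1 CPM (counts scaled to library size) or more on average, the genes most like KRT19 were LIPG (0.51), EPCAM (0.79), ETV4 (0.82), TMEM184A (0.84) and PXMP4 (0.87). LIPG, endothelial lipase, stood at 0.443, 0.124 and 0.177 TPM in GST lines 2, 8 and 9 and at 4.79, 3.51 and 1.92 TPM in NOCT lines 4, 11 and 12. EPCAM, an adhesion molecule of epithelial cells, stood at 36.2, 9.87 and 21.4 TPM and at 112, 89.8 and 87.0 TPM. Of the other filament genes, INA ranked 145 in likeness, KRT8 153 and KRT18 532.

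The other filament, linker, regulator and marker genes were read from 12 lists of 141 genes, of which 64 were tested. By edgeR none had an adjusted p under 0.05. At an unadjusted p under 0.05, 20 of the 64 passed, beside 13.9% of all genes tested. DESeq2 called 7 of the 64, beside 2.94% of the 17261 genes, and without NOCT line 12 edgeR called 10 of the 64, beside 5.17% of the 17261. The lists were chosen with earlier results of these data known, so nothing is read from these counts beside the shares. Of the 25 other type I keratins 15 had no count in any line and only KRT17 was tested, and of the 24 other type II keratins 13 had no count and none was tested. After KRT17 and KRT80 the most abundant were KRT13 and KRT15, with at most 12 and 16 counts in a line.

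Among 11 other filament proteins 8 were tested, with a median log2 fold change of 0.38; 7 of 8 were above 0. The nuclear lamins LMNB1, LMNB2 and LMNA, which form the filament layer under the nuclear envelope, had log2 fold changes of 0.04 ± 0.10, -0.07 ± 0.09 and 0.09 ± 0.16, and their groups overlapped. SYNM, SYNC and BFSP1 had log2 fold changes of 0.34 ± 0.09, 1.45 ± 0.34 and 0.63 ± 0.24 (edgeR adjusted p 0.194, 0.163 and 0.298). For these 3 genes every NOCT line was above every GST line, as for 10.5% of all genes tested. Among 15 linkers and filament-binding proteins, 13 were tested, with a median of 0.05. Desmoplakin (DSP), which anchors keratins at desmosomes, was at 116 ± 11.0 TPM in GST lines and 135 ± 11.3 TPM in NOCT lines (SD, n = 3 each; log2 fold change 0.13 ± 0.10, edgeR adjusted p 0.591). Plakoglobin (JUP) and dystonin (DST) had log2 fold changes of 0.05 ± 0.28 and -0.06 ± 0.12. Periplakin (PPL), a linker picked out after its values were seen, had the largest of the 13, at 2.05 ± 0.44 (edgeR adjusted p 0.141, DESeq2 8.8e-05).

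Among 18 regulators of keratin genes 14 were tested, with a median of 0.09. The transcription factor TFAP2A, which binds keratin promoters, stood at 17.3, 17.5 and 18.1 TPM in GST lines 2, 8 and 9 and at 34.3, 29.4 and 27.9 TPM in NOCT lines 4, 11 and 12. TFAP2A differed by 0.70 ± 0.09 on the log2 scale, with an edgeR adjusted p of 0.0563, between 1.2e-06 and 0.316 over the alternatives, and the groups did not overlap. SP1 had a log2 fold change of -0.02 ± 0.08, and JUN 0.59 ± 0.21 (edgeR adjusted p 0.279). The 6 regulators of the epithelial to mesenchymal transition had a median of -0.25, with 5 below 0, and ZEB1, a repressor of epithelial genes, had -0.42 ± 0.15 (edgeR adjusted p 0.268). ZEB2 and TWIST1, the other two most abundant, had -0.33 ± 0.21 and 0.22 ± 0.18 (edgeR adjusted p 0.529 and 0.617).

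No marker of another cell type had an edgeR adjusted p under 0.05. The 12 simple epithelial markers had 8 tested, 7 above 0, a median log2 fold change of 1.28 and a summed level of 20.2 to 59.2 TPM in GST lines and 114 to 152 TPM in NOCT lines. The most abundant was EPCAM, most of the summed level in NOCT lines (87.0 to 112 TPM, against 9.87 to 36.2 TPM in GST lines). EPCAM was higher by 1.99 ± 0.40 on the log2 scale (edgeR adjusted p 0.123, from 1.3e-08 to 0.576 over the alternatives). ESRP2 (0.63 ± 0.30, edgeR adjusted p 0.400) and CLDN7 (1.93 ± 0.77, edgeR adjusted p 0.320) followed. CLDN7 was at 4.83, 1.23 and 13.2 TPM in NOCT lines 4, 11 and 12 and at 0.931 to 2.22 TPM in GST lines. CDH3 (2.35 ± 0.55) and ESRP1 (2.28 ± 0.78) had larger differences at low levels, at most 3.47 and 2.42 TPM in a line. For EPCAM, CDH3 and ESRP1 every NOCT line was above every GST line, as for 10.5% of all genes tested. The groups overlapped for CDH1 (0.61 ± 0.54, edgeR adjusted p 0.652), and MUC1 was below 0 (-0.55 ± 0.44). The 12 neuronal markers had 7 tested, a median of 0.61 and a summed level of 215 to 285 TPM in GST lines and 214 to 234 TPM in NOCT lines, most of it UCHL1. They went both ways, with UCHL1 at -0.32 ± 0.11, MAP2 at 0.97 ± 0.26 and SYP at 0.61 ± 0.26 on the log2 scale (edgeR adjusted p 0.261, 0.196 and 0.347). The 5 HEK293 markers had a median of 0.15, with IGF2BP1 at 0.07 ± 0.09, CDH2 at 0.17 ± 0.16 and LIN28B at 0.15 ± 0.13. The 5 keratinocyte markers summed to at most 0.0614 TPM in any line. The 6 fibroblast markers summed to 3.53 to 3.88 TPM in GST lines and 2.49 to 8.94 TPM in NOCT lines (COL1A1 0.77 ± 0.37 on the log2 scale, edgeR adjusted p 0.402), with COL1A2 at 0 counts, and the 6 blood markers to at most 0.987 TPM, with CD3E and HBB at 0 counts. The part of the epithelial, neuronal and fibroblast markers in the filament results was not tested.

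**Figure D5:**
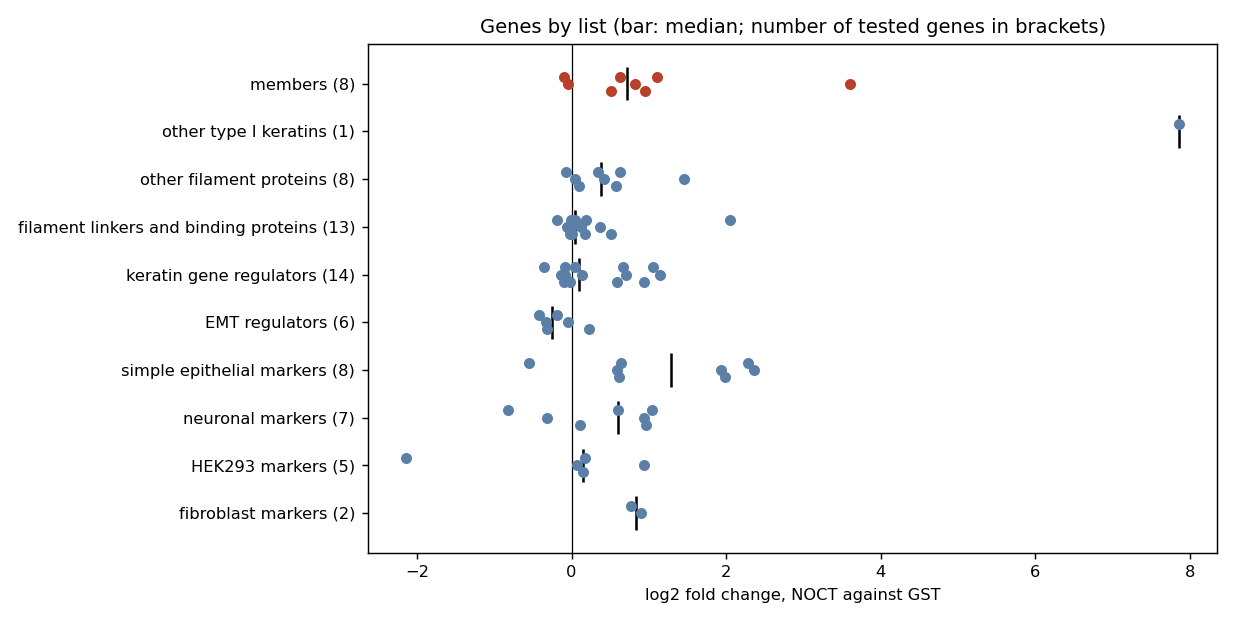
log2 fold change of NOCT against GST lines (x axis) of every tested gene of the 10 filament genes (top row) and of each list with a tested gene (y axis, number tested in brackets). Each point is a gene and the bar is the median. The simple epithelial markers have the highest median, 1.28, of the lists with more than 2 tested genes, and the linkers lie around 0.05.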

How the data were processed

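Total RNA of 6 lines, 3 per group, was depleted of ribosomal RNA and sequenced as strand-specific 50 bp reads, per the labels' protocols. The submitters' processing notes name STAR 2.5.2b, HTSeq 0.6.1p1, DESeq2 1.16.1 and the build GRCh38, and the annotation release is not given in the sources used here. The authors deposited whole-read counts per gene, a TPM table, and a comparison with shrunken log2 fold changes and p-values, whose direction was taken from the construct rows. Rows that name no gene were left out: reads without a feature were 26.5% to 30.6%, ambiguous reads 2.02% to 2.41% and reads not aligned uniquely 13.3% to 14.6%.

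Counts were fitted with edgeR 4.0.16 (filterByExpr, TMM, quasi-likelihood test, Benjamini-Hochberg over 17261 genes, threshold 0.05) in R 4.3.3. The fit was tested on simulated data. The labels call the lines biological replicates of clonal lines, and p-values set the group difference against the spread between clones. Coordinates and transcripts are GENCODE 29 on GRCh38, and promoters RefSeq.

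The 10 genes and the lists were chosen with earlier results of these data known. Named were the 10 genes and the 5 genes most like KRT19. Of each list, the genes called were named, or otherwise up to 3 with the highest mean TPM. PPL, PAX2, LHX1, CDH1, MUC1, CDH3, ESRP1, SYNM, SYNC, BFSP1, COL1A2, CD3E, HBB and the genes at the ends of a range were named after their values were seen. Alternatives were DESeq2 1.42.0, other scalings and filters, limma 3.58.1 on log2(TPM + 1) and log2(TPM + 0.1), a neighbour offset and leaving out each line. The unique-window level was added after seeing the data.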

Additional observations from a re-analysis of the deposited data

How the results depend on the processing

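For the 8 fitted filament genes, 120 of 120 values over 15 alternatives stayed within the spread between lines. Leaving out 1 of 3 lines can hardly move a value beyond that spread, so the count is little guide to stability. NES counted as unmoved although it fell from 0.81 to 0.23 without NOCT line 4. KRT19 lay between 3.36 and 3.76 on the log2 scale. The values of KRT10 and NEFL, near 0, changed sign under some alternatives, for example to 0.11 for KRT10 with spike-in totals and to 0.09 for NEFL without GST line 8. Spike-in totals moved the median of all genes to 0.15.

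The count of all genes called, 10, was 508 with DESeq2, 22 with spike-in totals, 888 without a filter on low counts and 35 with the offset for neighbouring genes, and it ranged from 0 (without GST line 9) to 893 (without NOCT line 12) when a line was left out. It was 5 without GST line 2, 6 without GST line 8 and 1 without NOCT line 11. The count among the listed genes, 0, was 7 with DESeq2, 1 with spike-in totals (TFAP2A), 12 without a filter and 1 with the neighbour offset (PAX2), and 0 to 10 when a line was left out, 10 without NOCT line 12. The cause was not tested. No paired analysis was possible because the groups share no replicate number. Depth limits KRT7, with 0 to 4 counts a line, NEFM outside NOCT line 12, and KRT17 in the GST lines.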
